A study of Homo sapiens with 7 samples.

Results

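MHC class I antigen presentation was followed through 9 genes: HLA-B, HLA-C, HLA-E, HLA-F and HLA-G, which encode class I heavy chains, B2M, which encodes the light chain, and TAP1, TAP2 and TAPBP, which supply the heavy chains with peptide. The members were taken by name from the gene column of the arrays, as every non-control spot that carries 1 of these 9 gene names. They make up 9 of 36337 gene names, 17 of 50599 probes and 26 of 58717 spots on each array. All arrays came from HCT116 H2B-GFP, a near-diploid human colon carcinoma line that expresses a histone H2B fused to GFP, treated with 10 nM bafilomycin A1 for 30 h. Bafilomycin A1 inhibits the proton pump that acidifies lysosomes and other vacuoles, and in the study this treatment was 1 of several stress conditions set beside aneuploid derivatives of the line. The 4 bafilomycin A1 replicates were measured on 1 single-colour Cy3 array each, all 4 arrays on 1 slide, from 100 ng of RNA per labelling reaction. Per the labels the cells grew with 10% serum, whereas the study's methods name another concentration for this line. The 3 untreated samples were not analysed here. The values below therefore describe how these genes were detected and how far they varied under bafilomycin A1, and no change against untreated cells was computed. The labels number the replicates without saying whether they were separate cultures, so the spread between them may be technical in part.

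Nucleated cells display peptides from their own proteins on class I molecules, each made of a polymorphic heavy chain and beta-2-microglobulin. The proteasome cuts the peptides, the TAP1-TAP2 transporter pumps them into the endoplasmic reticulum, and tapasin, the product of TAPBP, bridges the transporter to an empty class I molecule until a peptide is bound. HLA-B and HLA-C are classical class I genes and present to cytotoxic T cells, HLA-E presents mainly leader peptides of other class I chains to natural killer cell receptors, HLA-F is a nonclassical gene with a limited distribution, and HLA-G is best known from the trophoblast of the placenta. Interferon and the transactivator NLRC5 raise the transcription of most of these genes together.

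The probes of HLA-B and HLA-C have to be read with their letters in view, because 3 of them lie on the same stretch. In the GRCh37 coordinates of the files, the HLA-B probe A_33_P3424800 covers chr6:31321663-31321722 and the HLA-B probe A_33_P3379947 covers chr6:31321653-31321712, both on the minus strand. The probe A_33_P3424803, which the files name HLA-C, is placed at chr6:31321644-31321703, overlapping both HLA-B probes, whereas the other HLA-C probe, A_33_P3330109, lies at chr6:31236617-31236676. Exon and UTR status was not read here, since no annotation of this build was at hand. A 30-base window that all 3 overlapping probes contain is shown, with the position at which they differ in a capital letter, so that the shared target can be seen.
HLA-B A_33_P3424800: taagtcaattcctggaaGttgagagagcaa
HLA-B A_33_P3379947: taagtcaattcctggaaTttgagagagcaa
HLA-C A_33_P3424803: taagtcaattcctggaaGttgagagagcaa

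The HLA-B probe A_33_P3424800 shares 41 bases with A_33_P3424803 without a mismatch (0 mismatches). The other HLA-B probe overlaps A_33_P3424800 by 50 bases and A_33_P3424803 by 51 bases, with 1 mismatch to each, T27G, counted from 1 at the 5′ end of A_33_P3379947. The RefSeq accessions that the files attach to both of these HLA-B probes belong to HLA-B and HLA-C. Their signals therefore cannot be assigned to 1 of the 2 genes, and how much of the HLA-C RNA they bind was not tested. No RefSeq accession of a gene could be matched to A_33_P3424803, and whether it measures HLA-B or HLA-C was not settled. A search for runs of at least 18 shared bases found no overlap between any other pair of a member probe and another probe of the array.

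The third HLA-B probe, A_33_P3399208, has no coordinates in the files. It is printed whole because it behaved unlike the other HLA-B probes, as described below.
HLA-B A_33_P3399208: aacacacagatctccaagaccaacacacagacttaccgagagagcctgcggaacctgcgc

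HLA-F also has a pair of unlike probes. A_33_P3379939, at chr6:29693280-29693338 in the coordinates of the files, carries accessions of HLA-F and of the pseudogene HLA-H, while A_33_P3379967, at chr6:29692114-29692173, carries HLA-F alone. Both are printed since their values lay far apart.
HLA-F A_33_P3379939: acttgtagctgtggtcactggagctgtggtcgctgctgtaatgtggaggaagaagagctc
HLA-F A_33_P3379967: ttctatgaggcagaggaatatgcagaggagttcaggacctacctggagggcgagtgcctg

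All 9 genes were detected, meaning that at least 1 probe was well above background, by the flag of the scanner software, on all 4 arrays. Over the whole array, 52.5% of gene names met this rule. At the level of probes, 15 of the 17 member probes were well above background on all 4 arrays, against 48.7% of all probes, and 2 were so on no array. The 2 silent probes were 1 of 2 probes of TAP2 and 1 of 4 probes of TAPBP, so neither gene rests on its dark probe alone. No member spot was saturated on any array (0 spots), and none gave a signal at or below 0. Levels are given throughout as the log2 of the background-subtracted signal minus the median of the array, so that a difference of 1 between 2 arrays is a doubling relative to the array median. The levels of different probes depend on the probe as well as on the RNA and were not compared with each other. In such bulk RNA, fewer cells that express a gene and less RNA per cell cannot be told apart.

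**Figure D1:**
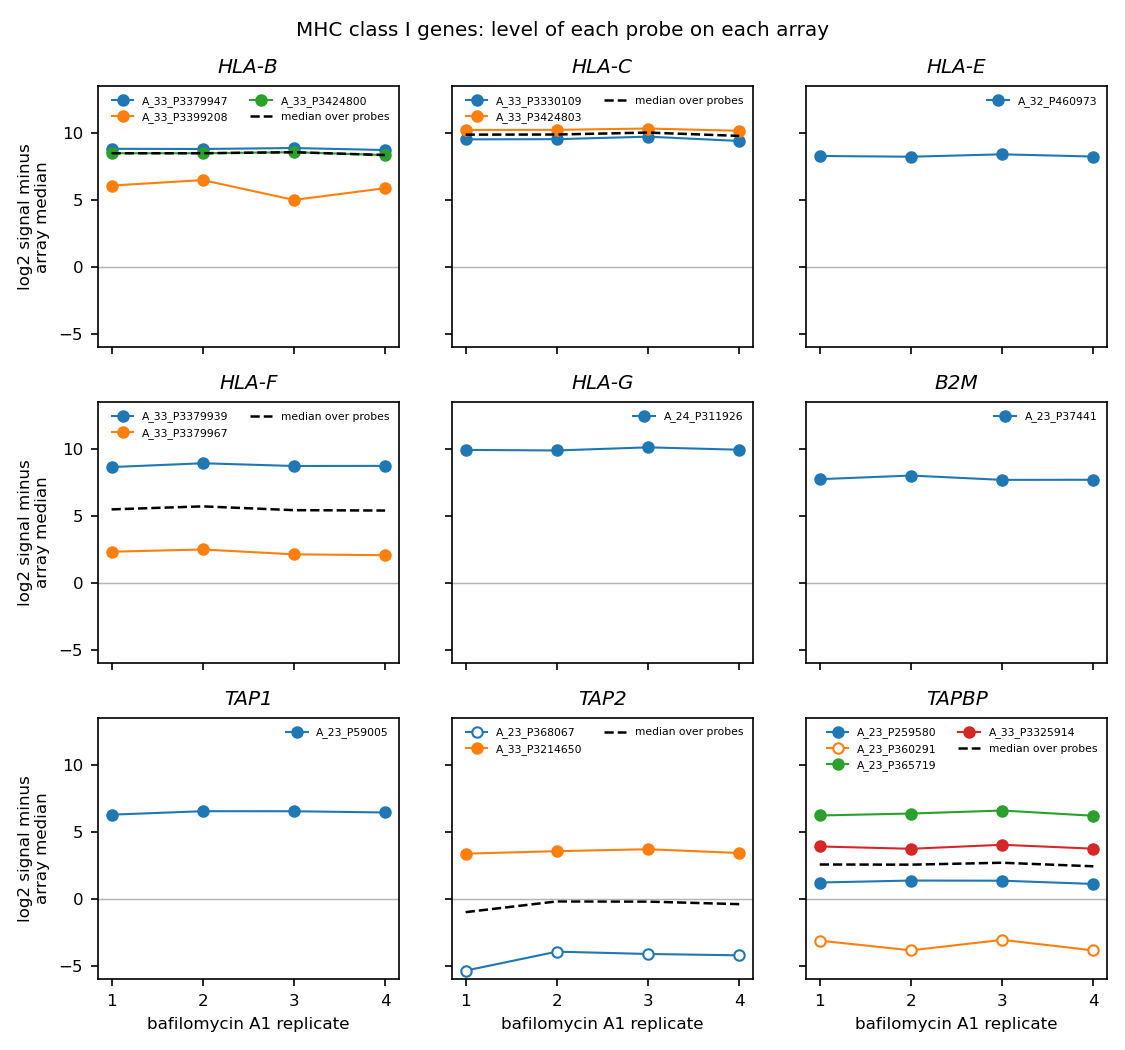
Level of each member probe (log2 signal minus array median) on the arrays of bafilomycin A1 replicates 1 to 4, 1 panel per gene. Filled points are probes well above background on all 4 arrays, open points are the TAP2 and TAPBP probes well above background on no array, the dashed line is the gene level (median of its probes), and the HLA-B probe A_33_P3399208 drops to 5.00 on replicate 3.

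Among the classical heavy chains, HLA-B stood at 8.49, 8.49, 8.56 and 8.35 on replicates 1 to 4 (8.47 ± 0.09, SD, n = 4). HLA-C stood at 9.87, 9.88, 10.03 and 9.78 in the same order (9.89 ± 0.10). This HLA-C level is the midpoint of 2 probes, 1 of them on the stretch shared with HLA-B. Both genes were highest on replicate 3 and lowest on replicate 4, and their highest and lowest arrays differed by 1.16-fold and 1.19-fold. The background-subtracted signal of the HLA-C probe that lies apart from the HLA-B probes was 56622, 51976, 59321 and 42889, and its level averaged 9.54 ± 0.13 (SD, n = 4). The other HLA-C probe, on the stretch shared with HLA-B, averaged 10.24 ± 0.07 and was likewise highest on replicate 3 and lowest on replicate 4.

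The 3 HLA-B probes did not follow each other. A_33_P3379947 read 8.82, 8.80, 8.88 and 8.72, and A_33_P3424800 read 8.49, 8.49, 8.56 and 8.35, so that both changed little and had their top value on replicate 3. A_33_P3399208 read 6.07, 6.49, 5.00 and 5.88, with signals of 5192, 6279, 2253 and 3736. Replicate 3, the highest array of the other HLA-B probes, was the lowest of this one. Its spread was 0.62 (SD, n = 4) and its arrays differed by 2.79-fold, whereas the SDs of the other probes were 0.06 and 0.09. It was the only 1 of the 15 detected member probes whose arrays differed by more than 1.4-fold, the fold that the study's methods use for a changed gene, against 43.5% of all detected probes. The 288 detected probes within 0.5 of its level and 2 percentage points of its GC content deviated by a median of 0.03 on replicate 3, where A_33_P3399208 lay 0.86 below its own mean (deviation of -0.86). With the processed signal scaled to its 75th percentile the same probe spanned 2.82-fold, and with normexp and quantile normalization 3.03-fold, with replicate 2 highest and replicate 3 lowest in each case. Each array carries this probe as 1 spot, none of which was marked as an outlier, so an array position and the RNA cannot be told apart. Since HLA-B is taken as the median of its 3 probes, its gene level did not carry this drop; with the mean over the probes in place of the median, its SD was 0.19.

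Of the nonclassical genes, HLA-E, measured by 1 probe, stood at 8.28, 8.23, 8.40 and 8.24 (8.29 ± 0.08, SD, n = 4). Its probe, at chr6:30460729-30460788, begins cttcctcacactgacctgtgttccttccct. HLA-F stood at 5.48, 5.70, 5.42 and 5.39 (5.50 ± 0.14), highest on replicate 2. This gene level is the midpoint of 2 unlike probes and describes neither of them. The HLA-F and HLA-H probe read 8.63, 8.92, 8.71 and 8.72 (8.75 ± 0.12), and the probe of HLA-F alone read 2.32, 2.49, 2.12 and 2.06 (2.25 ± 0.19). Both were highest on replicate 2. How much of the brighter signal comes from HLA-H RNA was not tested.

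HLA-G was well above background on all 4 arrays. Its 1 probe, at chr6:29798694-29798753 and beginning ttcctgttccagaaaaggggctgggatgtc, gave background-subtracted signals of 74202, 65637, 77218 and 61707. Its level was 9.91, 9.87, 10.10 and 9.93 (9.95 ± 0.10, SD, n = 4), with replicate 3 above the other arrays and a span of 1.17-fold. The markers that define trophoblast, the placental cell type known for HLA-G, were mostly dark. CGA, PSG1 and ERVW-1 were well above background on no array, and of the 4 markers only GCM1 was detected, at 1.41 ± 0.03. The accessions of the HLA-G probe are those of HLA-G alone, and no other probe of the array shares a run of 18 bases with it. Whether RNA of other class I genes binds to it was not tested.

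B2M, the light chain shared by all class I molecules, was measured by 1 probe printed as 10 spots on each array, which makes it the member with the best technical replication. The probe lies at chr15:45007773-45007832 and is shown because the values that set 1 array apart rest on it.
B2M A_23_P37441: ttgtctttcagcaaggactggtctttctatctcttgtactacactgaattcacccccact

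B2M stood at 7.73, 8.0, 7.68 and 7.69 (7.77 ± 0.15, SD, n = 4). Replicate 2 lay above the rest, and the other arrays differed little. Its highest and lowest arrays differed by 1.25-fold. By Dixon's ratio, the gap of the most distant array over the whole range, B2M reached 0.84, above the 95% critical value for 4 values, and it was the only 1 of the 9 members to do so. Among all detected genes 8.48% did so, and chance alone gives about 5%. Of the 15 detected member probes, that of B2M alone passed, against 7.3% of all detected probes. As B2M has 1 probe, this is the same ratio and not a further result. All 10 spots had their highest value on replicate 2. The spots themselves differed within an array by more than the arrays did, with an SD of 0.18 to 0.22 and a brightest spot 1.47-fold to 1.56-fold above the dimmest. These differences between spots came back on every array, since the same spot was brightest on all 4, and once the mean of each spot and of each array was removed the remaining SD of a spot was 0.03. Outlier flags removed 0, 1, 2 and 1 of the 10 spots on replicates 1 to 4, all of them on the 2 brightest spots. With every spot kept, the array means were 7.72, 8.02, 7.75 and 7.70, with an SD of 0.15 again, and Dixon's ratio was again 0.84. With the processed signal scaled to its 75th percentile, B2M read 5.33, 5.55, 5.28 and 5.42 and the ratio was 0.49, below the critical value. With normexp and quantile normalization the ratio was 0.51. Replicate 2 remained the highest array for B2M under both, and the call that it stands apart held with the median-centred values only.

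**Figure D2:**
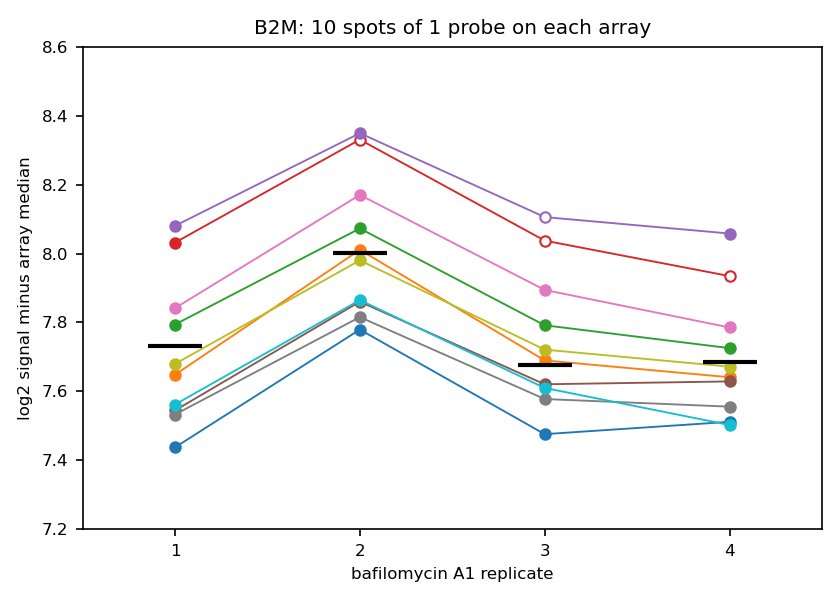
Level (log2 signal minus array median) of the 10 spots of the B2M probe on the arrays of bafilomycin A1 replicates 1 to 4. Each coloured line is 1 spot, open points carry an outlier flag, black bars are the mean over the spots without a flag (averaged before the log2), and every spot is highest on replicate 2.

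Of the peptide supply genes, TAP1 stood at 6.26, 6.52, 6.52 and 6.42 (6.43 ± 0.12, SD, n = 4) with 1 probe, lowest on replicate 1. TAP2 stood at -1.01, -0.21, -0.22 and -0.41 (-0.46 ± 0.38) and was the only member whose arrays differed by more than 1.4-fold (1.74-fold). Over all detected genes, 46.4% differed by more than 1.4-fold. The spread of TAP2 came from its dark probe. A_23_P368067, at chr6:32789804-32789863, had signals of 1.86, 4.52, 4.02 and 3.39 and was well above background on no array, while A_33_P3214650, at chr6:32793222-32793281, read 3.35, 3.54, 3.68 and 3.40 (3.49 ± 0.15, SD, n = 4). With the detected probe alone TAP2 spanned 1.26-fold, and none of the 9 genes exceeded 1.4-fold (0 genes), which was also so without replicate 1 (0 genes) or with the processed signal (0 genes). With normexp and quantile normalization 1 gene did, B2M at 1.41-fold in place of TAP2. The first 30 bases of both probes are given so that they can be told apart.
TAP2 A_33_P3214650: gctcagtattttcgcaaacagcagctgtct
TAP2 A_23_P368067: cccaaagcctttggttcctcagtttccaaa

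TAPBP stood at 2.55, 2.53, 2.68 and 2.41 (2.54 ± 0.11, SD, n = 4), highest on replicate 3 and lowest on replicate 4. This level depends on its dark probe: the median of the detected probes alone was 3.84, and the mean over all 4 probes 1.98. Its 3 detected probes lay at unlike levels, 6.32 ± 0.18 for A_23_P365719, 3.84 ± 0.14 for A_33_P3325914 and 1.25 ± 0.12 for A_23_P259580, and each had a span of at most 1.31-fold. The fourth probe, A_23_P360291, had signals of 8.79, 4.84, 8.32 and 4.37 and no RefSeq accession of a gene could be matched to it. It was well above background on none of the 4 arrays. In the coordinates of the files, A_23_P365719 lies at chr6:33267718-33267777, and A_23_P259580 spans 7889 bases (chr6:33273141-33281029) although the probe has 60, so its letters are not contiguous in the genome.

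Set beside the whole array, the 9 genes varied little between the replicates. Their median SD was 0.11, against 0.21 over the 19083 detected genes, and 8 of the 9 lay below that median. Bright genes vary less on these arrays, so each member was also set beside the detected genes within 0.25 of its own level. The median SD of these genes of like level ran from 0.15 for HLA-B to 0.27 for TAP2, and again 8 of the 9 members, all but TAP2, had a smaller SD. For HLA-E, 6.82% of 176 genes of like level had a smaller SD. For HLA-B the share was 12.7% of 158 genes and for TAPBP 13.8% of 1143 genes. B2M was ordinary in this respect, with 47.4% of 232 genes below it, while for TAP2 the share was 71.9% of 1314 genes. The SDs of HLA-B, TAP2 and TAPBP depend on how their probes were summarized. The TAP2 level lies between a detected and a dark probe, so its genes of like level match neither. With the detected probe alone the TAP2 SD was 0.15. The HLA-B median sets aside a probe with an SD of 0.62, and with the mean over probes the HLA-B SD was 0.19. The TAPBP level lies between its probes, and with only detected probes its SD was 0.14. These shares are descriptions, since the members were picked by name and share regulators and probe sequence.

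**Figure D3:**
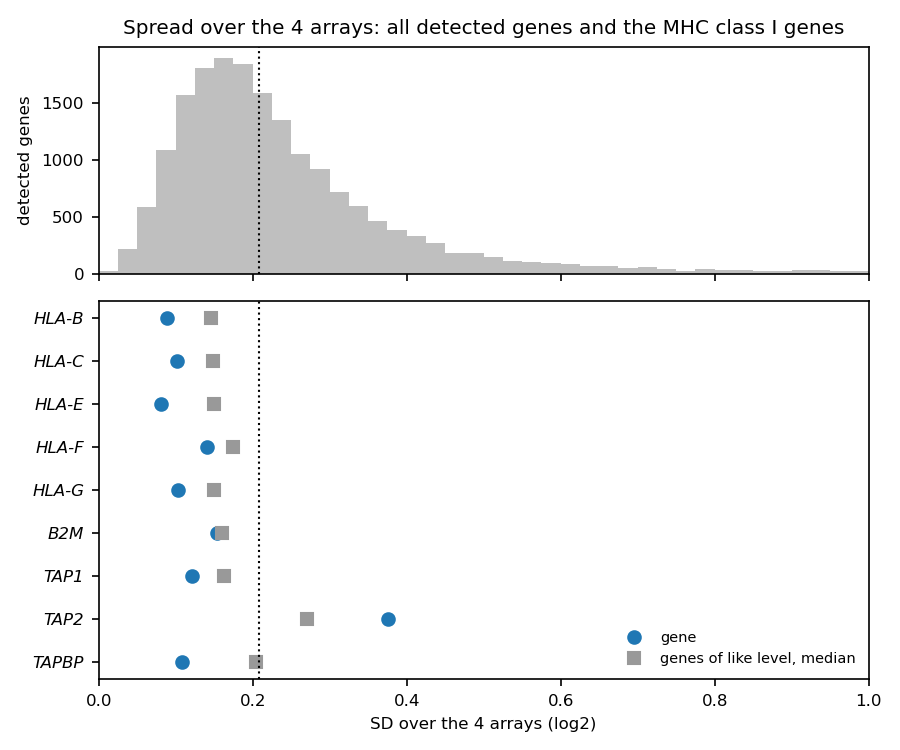
Top, number of detected genes by SD over the 4 bafilomycin A1 arrays (log2), shown up to an SD of 1. Bottom, the SD of each MHC class I gene (circles) and the median SD of detected genes within 0.25 of its level (squares); the dotted line is the median of all detected genes, 0.21, and of the 9 genes TAP2 alone lies to its right.

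Across the arrays, the members did not form 1 block. HLA-B, HLA-C, HLA-E, HLA-G and TAPBP were highest on replicate 3, and HLA-F, B2M, TAP1 and TAP2 were highest on replicate 2. Replicates 2 and 3 were nearly level for TAP1 (6.519 and 6.516) and for TAP2 (-0.208 and -0.222). The detected TAP2 probe alone was highest on replicate 3. The lowest array was replicate 4 for 4 genes, replicate 1 for 2, replicate 2 for 2 and replicate 3 for 1. Averaged over the 9 genes, the deviation from each gene's own mean was -0.09, 0.07, 0.09 and -0.07 on replicates 1 to 4 (SD of 0.09 over the 4 arrays), and without TAP2 it was -0.03, 0.05, 0.07 and -0.08. All detected genes had median deviations of -0.03, 0.03, 0.10 and -0.10, which is of the same size. Genes of like level deviated by -0.05, -0.02, 0.15 and -0.08, so on average they were high on replicate 3. The deviation on replicate 3 also differed with GC content. Probes of like level and GC content had a median of 0.29 there for the TAP2 probe A_33_P3214650 (35% GC). For the TAPBP probe A_33_P3325914 (55% GC) the median was -0.08. HLA-G on replicate 3 deviated by 0.15 and its genes of like level by 0.20, and for HLA-C the values were 0.14 and 0.18. HLA-F and B2M ran the other way, with deviations of -0.08 and -0.10 on replicate 3 where genes of like level deviated by 0.18 and 0.17. The HLA-F level lies between its 2 unlike probes, so its genes of like level match neither probe. On replicate 3 the HLA-F and HLA-H probe deviated by -0.03 and probes of like level and GC content by 0.17. For the probe of HLA-F alone these values were -0.12 and -0.11. On replicate 2 HLA-F deviated by 0.20 and B2M by 0.23, against 0.01 and -0.02 for genes of like level. Relative to genes of like level, the mean of the 9 members was -0.04, 0.09, -0.07 and 0.01. The order of the arrays depended on the scaling: with the processed signal scaled to its 75th percentile the mean deviations were -0.02, -0.01, -0.00 and 0.04, and with normexp and quantile normalization 0.02, 0.04, -0.06 and 0.00.

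**Figure D4:**
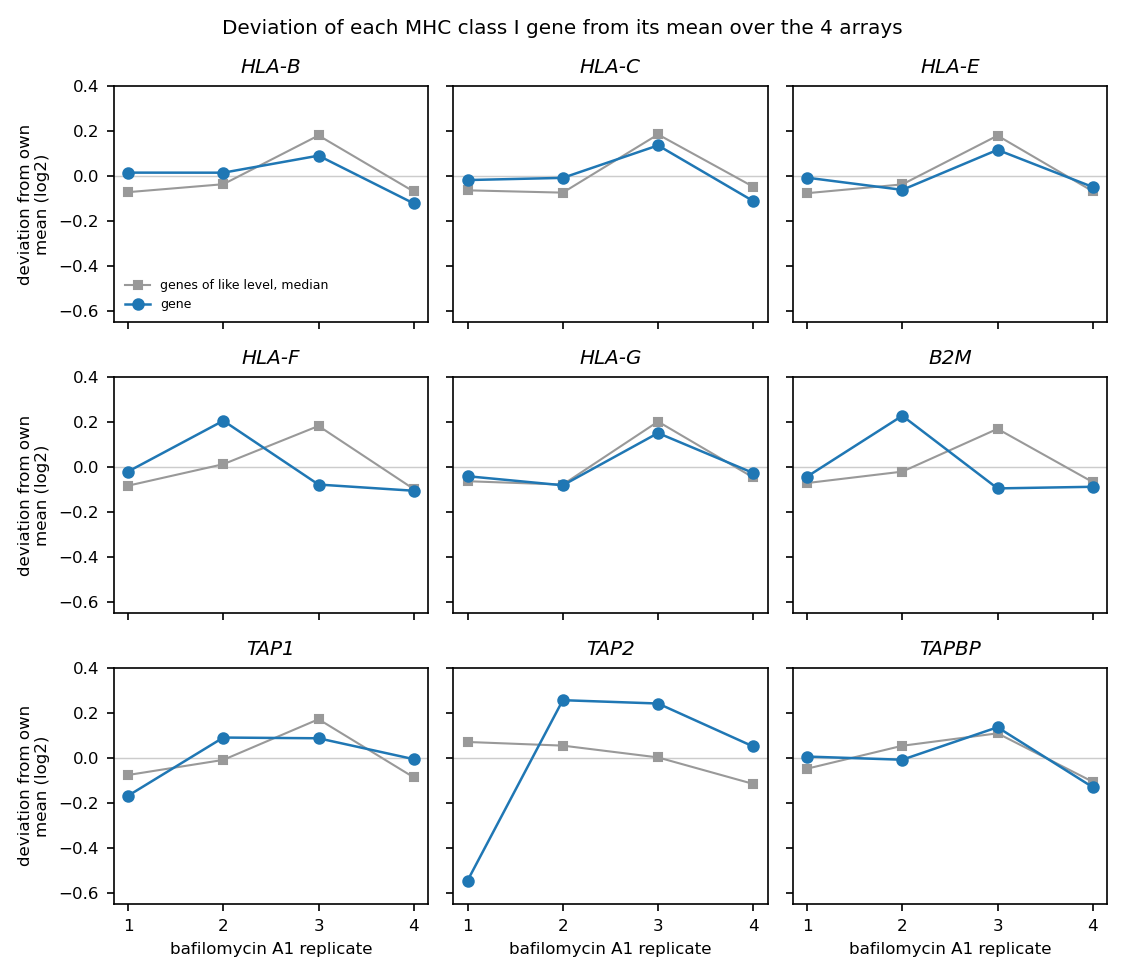
Deviation of each MHC class I gene from its own mean over the 4 arrays (log2, circles) on bafilomycin A1 replicates 1 to 4, with the median deviation of detected genes within 0.25 of its level (squares). HLA-B, HLA-C, HLA-E and HLA-G peak on replicate 3 with the genes of like level, HLA-F and B2M peak on replicate 2, and TAP2 lies lowest on replicate 1 at -0.55.

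The members share short motifs near their start sites. RefSeq promoter windows of GRCh38.p14, from 250 bases before to 50 bases after a start, were available for 8 of the 9 genes, without HLA-E. These 8 genes have 11 windows, and a gene was counted when any of its windows held the motif. The shares over all promoters are per window, so the 2 are not in the same unit. Motif letters were chosen with these promoters in view, both strands were searched, and matches to different motifs may overlap. A tandem of GAAA, any 2 bases and GAAA, of the type that interferon regulatory factors bind, was in the windows of 5 of the 8 genes, B2M, HLA-F, TAP1, TAP2 and TAPBP, and in 3.57% of 35116 promoter windows. The shorter form GAANNGAAA was in those of HLA-B, HLA-C and TAP2 and in 7.66% of all. A kappaB-like motif, read as GGGA, any base, T, any 2 bases and CC, was in those of B2M, HLA-B, HLA-C and TAP1 and in 5.13% of all, and the CCAAT-box form GCCAATC was in those of B2M, HLA-B, HLA-C, HLA-F and HLA-G and in 6.55% of all. The stretches of HLA-B and HLA-G, B2M, TAP1 and TAPBP are shown as examples, with the matches in capitals. They lie at chr6:31357225-31357361 on the minus strand for HLA-B, chr6:29827643-29827779 on the plus strand for HLA-G, chr15:44711362-44711481 on the plus strand for B2M, chr6:32853760-32853849 on the minus strand for TAP1 and chr6:33314079-33314128 on the minus strand for TAPBP, and each is written 5′ to 3′ on the strand of its gene.
HLA-B: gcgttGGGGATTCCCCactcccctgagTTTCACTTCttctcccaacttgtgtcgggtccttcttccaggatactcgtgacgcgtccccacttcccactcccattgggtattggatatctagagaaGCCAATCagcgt
HLA-G: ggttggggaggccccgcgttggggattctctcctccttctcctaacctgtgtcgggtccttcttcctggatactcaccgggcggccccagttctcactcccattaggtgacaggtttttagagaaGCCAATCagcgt
B2M: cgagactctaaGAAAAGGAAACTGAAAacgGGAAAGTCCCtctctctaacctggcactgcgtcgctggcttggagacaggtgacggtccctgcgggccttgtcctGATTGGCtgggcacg
TAP1: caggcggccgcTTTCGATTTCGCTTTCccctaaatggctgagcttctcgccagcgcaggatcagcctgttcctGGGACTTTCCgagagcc
TAPBP: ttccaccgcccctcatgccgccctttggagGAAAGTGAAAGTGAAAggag

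Of these motifs the HLA-G window held GCCAATC alone. A match is a description of letters, and binding was not measured.

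The factors named for these motifs were mostly present in the RNA. Of 18 class I regulators, 16 were detected on all 4 arrays and 2, IRF2 and CIITA, were well above background on some arrays. For this list and the later ones, the share detected over all gene names of the array was 52.5%. IRF1, an interferon-induced activator of class I genes, stood at 1.96 ± 0.25 (SD, n = 4). NLRC5 stood at -1.04 ± 0.56, the largest SD among the detected genes of the list, with 1 of its 2 probes detected (0.97 ± 0.14). IRF9, a factor of interferon signalling, and CREB1, a factor of the class I enhanceosome, followed with SDs of 0.36 and 0.28. CIITA, the transactivator of class II genes, had no probe well above background on more than 2 arrays (-2.65 ± 0.76). On 1 array only 1 of its 2 probes gave a positive signal, so the CIITA value there rests on that probe alone. All 7 interferon receptors and kinases were detected, with the largest SD for the kinases TYK2 (2.13 ± 0.68) and JAK2 (0.85 ± 0.32), followed by the receptor chain IFNAR2 (3.23 ± 0.24).

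Peptide production was represented unevenly. Of 10 genes of the immunoproteasome list, 8 were detected. PSMB8, an interferon-induced catalytic subunit, was well above background on no array, with signals of 14.6, 15.2, 12.3 and 5.81 that passed the milder flag for a signal above background on all 4 arrays, whereas PSMB9, another such subunit whose gene lies beside TAP1, was detected on all 4 at 2.31 ± 0.21 (SD, n = 4). The constitutive subunit PSMB7 was well above background on 3 arrays, and on replicate 3 its bright spot was left out for an outlier flag. With such spots kept, 9 of the 10 genes were detected. POMP, the proteasome assembly factor, and PSME3, an activator subunit, varied most among the detected genes of this list, with SDs of 0.37 and 0.29.

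All 10 genes of peptide loading and trimming were detected. The trimming aminopeptidase ERAP1 read -0.20, 2.01, 2.00 and 1.85 and had by far the largest SD there, 1.08. Its low value came from a probe well above background on no array, which had a signal above 0 on replicate 1 only. The detected ERAP1 probe read 1.85, 2.01, 2.00 and 1.85. The folding sensor UGGT1 (2.84 ± 0.26) and the second aminopeptidase ERAP2 (-0.12 ± 0.23) came next.

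Among class I-like and other class I genes, 12 of the 18 on the array were detected. The 6 with no probe above that limit on any array were the pseudogene HLA-L and the lipid-presenting CD1A, CD1B, CD1C, CD1D and CD1E. HLA-H, RAET1G and RAET1L of this list were not found among the gene names. The largest SDs were those of AZGP1 (0.68), the stress ligand RAET1E (0.35) and HFE (0.35), a class I-like regulator of iron uptake. AZGP1, RAET1E and HFE each had 1 of 2 probes detected, and their gene values include the other. For AZGP1 and HFE that other probe was well above background on no array. Of 10 genes of class I turnover, 9 were detected, and the ubiquitin ligase MARCH4 was well above background on no array. DERL1 and SYVN1, which act in the export of misfolded chains from the endoplasmic reticulum, had the largest SDs, 0.27 and 0.25.

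Class II genes, which present peptides from the endosomal route and are not typical of most epithelial cells, gave a mixed picture. Of 11, 8 were detected, among them HLA-DRA at 1.54, 1.51, 1.89 and 1.29 (1.56 ± 0.25, SD, n = 4). CD74, the invariant chain that class II molecules need, was well above background on no array. Its signals of 7.60, 5.37, 4.31 and 5.54 passed the milder flag for a signal above background on all 4 arrays. By that flag 10 of the 11 class II genes were detected. Among the detected class II genes, HLA-DQB1, HLA-DPB1 and HLA-DOA had the largest SDs, 0.35, 0.29 and 0.28. Each of them has a probe not well above background on all 4 arrays, and its gene value includes that probe where it has a value.

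**Figure D5:**
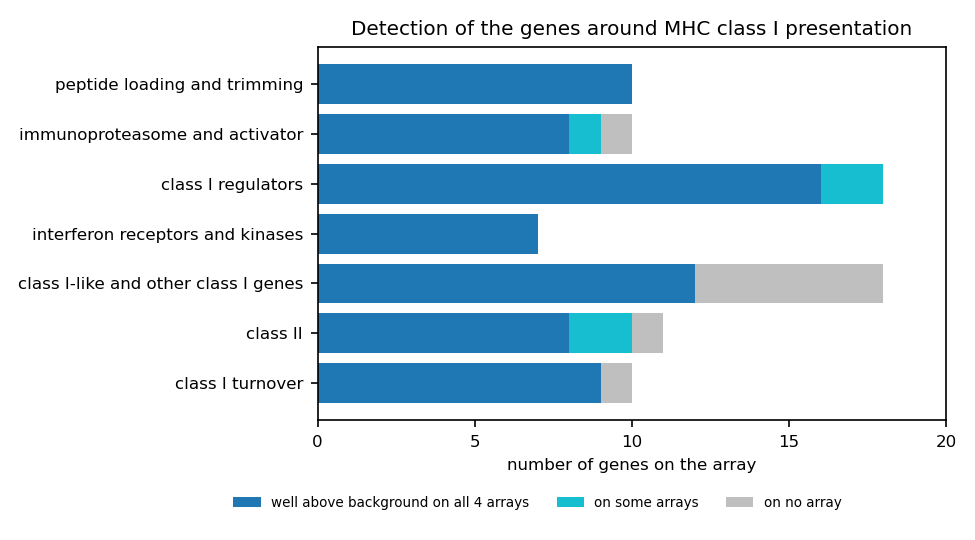
Number of genes (horizontal axis) of each list around MHC class I presentation that were well above background on all 4 bafilomycin A1 arrays, on some arrays or on no array. All 10 loading genes and all 7 interferon receptors and kinases were detected, and the 6 dark class I-like genes include the CD1 family.

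The median SD of the detected genes ran from 0.16 for the class I regulators to 0.23 for peptide loading over the 7 lists, against 0.11 for the 9 members. Markers of cell types were read on the same arrays, where 52.5% of all gene names were detected by the same rule. Of 9 colon epithelium markers 8 were detected, with EPCAM at 8.84 ± 0.15 and CDH1 at 5.81 ± 0.31, and VIL1 was well above background on no array. Of 8 lymphocyte markers 6 were detected, which includes PTPRC through 1 of its 5 probes (-2.07 ± 1.12 as the median over probes), the B cell gene CD79A (5.73 ± 0.17) and the T cell gene CD3D (0.58 ± 0.18), and the B cell marker MS4A1 was well above background on no array. Of 6 myeloid and dendritic cell markers on the array 3 were detected, and of 6 fibroblast markers 1. The detected markers thus include some of cell types other than the labelled one, and the part of such cells or of unspecific binding in any value was not tested. Over the 4 arrays, 55.6% to 60.4% of spots were well above background and 514 to 2249 spots carried an outlier flag, most of them on replicate 3.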

How the data were processed

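The members and all gene lists were chosen with earlier results of these data known, and the lists describe rather than test. The authors deposited, per array, the intensity values that Agilent Feature Extraction 10.7.3.1 wrote: background-subtracted signals on a linear scale, not normalized between arrays, with flags for spots well above background or outlying, and the software's processed signal. The deposited probe coordinates are those of GRCh37. RNA was extracted, labelled with Cy3 and hybridised as in the labels' protocols. RefSeq tables of GRCh38.p14 served for symbols and promoter letters.

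Control spots and spots with an outlier flag were left out, the spots of a probe averaged, the signal log2 transformed where above 0, and the array median over non-control probes subtracted. A gene is the median over its probes, as in the study's methods. Values are means with SDs over 4 arrays, whose number limits the precision. Detection of a probe required that over 50% of its spots were well above background, and that of a gene 1 such probe on all 4 arrays. With 1 group, no test between groups was made.

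Named are the 9 members, list genes well above background on no array, the 3 detected genes of each list with the largest SD, and PSMB8, PSMB9, NLRC5, CIITA, HLA-DRA, CD74, IRF1, EPCAM, CDH1, PTPRC and CGA; other names were chosen after their values were seen. Some genes that this rule names are not reported here. Other settings were the processed signal scaled to its 75th percentile, normexp (offset 50) with quantile normalization in limma 3.58.1, outlier spots kept, other probe and detection rules, and each array left out. The statistics were tested on simulated data. Python 3.11.15 with numpy 2.4.6, pandas 2.3.3 and matplotlib 3.10.9, and R 4.3.3, were used.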

Additional observations from a re-analysis of the deposited data

Results flagged for a closer look

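Dixon's ratio was computed for 52 values (the 9 members, the probes of the members with several probes, and the genes named from the lists), and 3 of them exceeded the 95% critical value for 4 values; chance gives about 5%. B2M had a ratio of 0.838 with replicate 2 above the other arrays. ERAP1 had 0.925 with replicate 1 low, the array on which its dark probe has a value. PSME3 had 0.913, at 4.41, 4.36, 4.97 and 4.39, with replicate 3 high.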

How the results depend on the processing

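No paired analysis was possible because only 1 group of samples had files. With the processed signal scaled to its 75th percentile, the median SD of the 9 members was 0.0814, the SD over arrays of their mean deviation was 0.0264 and 0 members exceeded 1.4-fold, with HLA-G in place of B2M as the member with 1 array apart; with normexp and quantile normalization the first 2 were 0.0660 and 0.0448, 0 members had 1 array apart, and 1 member exceeded 1.4-fold, B2M in place of TAP2. All detected genes had a smaller median SD under these settings too, 0.184 and 0.112 against 0.208, so the members stayed below it. With only detected probes 0 members exceeded 1.4-fold and the SD of the mean deviation was 0.0743, and with the mean over probes the median SD was 0.141 and the SD of the mean deviation 0.0840. Leaving out 1 array in turn gave a median SD of 0.0788 to 0.124, an SD of the mean deviation of 0.0836 to 0.0985 and 0 to 1 members over 1.4-fold, the count of 0 without replicate 1. Where every probe of a gene had to be detected, 7 of the 9 members (not TAP2 and TAPBP) and 5 class II genes were. The other detection rules, save that with outlier spots kept, are looser than the main rule, so the 9 members pass them by construction. With outlier spots kept the 9 members were detected as well. Levels set to another centre moved for all 9 members. With only detected probes TAP2 moved from -0.46 to 3.49 and TAPBP from 2.54 to 3.84, and with the mean over probes HLA-B moved from 8.47 to 7.71 and TAPBP to 1.98. Levels stayed within 1 SD for all 9 with outlier spots kept. Leaving out 1 of 4 arrays cannot move a mean by 1 SD, so those settings could not show a moved level. TAP2 and TAPBP rest on 1 and 3 detected probes, and with 4 arrays of 1 group the spread itself is known roughly.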
